A study of Mus musculus with 6 samples.

Results

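The genes described here are 48 ligands and receptors of axon guidance, chosen by symbol from the semaphorin, plexin, neuropilin, ephrin, Eph, Slit, Robo and netrin families, out of 54232 genes listed in each count file. All 48 symbols matched 1 Ensembl gene, and all 48 passed the filter on low counts. RNA was sequenced from 6 libraries of wildtype CD1 mouse cortical neurons, in 3 groups of 2 numbered as repeats 1 and 2. The control libraries are named PDL, the PA libraries IKVAV (a peptide sequence of laminin), and the PA + PS2 libraries IKVAV with PEDOT-S_OH (PEDOT is a conducting polymer). PA is a peptide amphiphile, a self-assembling peptide with a fatty tail, and the treatment label gives it for all 6 libraries, the control included. The labels used here give no animal age, culture time or dose, and do not say whether the repeats came from separate animals or cultures, so the tests measure only the spread between these libraries.

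Axon guidance proteins steer growing axons and dendrites by local attraction or repulsion. Semaphorins signal through plexins, with neuropilins as co-receptors for most secreted ones. Ephrins sit on the cell membrane and bind Eph receptor tyrosine kinases on the neighbouring cell. Slits repel axons through Robo receptors, and netrins attract through Dcc or repel through Unc5 receptors. In the cortex the same families shape layer formation, axon tracts and later the synapses.

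The libraries held 30714311 to 33923681 counts, and the smallest count of any of the 48 genes in a library was 73. Of the cell type markers, 8 neuron genes summed to 6822 and 7165 CPM in control libraries, at 6779 and 6937 in PA, and at 7099 and 6536 in PA + PS2. The neuron sum did not separate the groups. Of the 8 genes, 3 lay below the control in both PA + PS2 libraries without overlap and 1 above, where 17.1% and 16.6% of all genes did. Against PA, 1 lay below and 1 above, beside 18.4% and 16.7%. Markers of other cells were also present, with 8 astrocyte genes at 37.4 to 209 CPM in sum and 6 microglia genes at 2.96 to 5.08 CPM. CPM are counts scaled by library total and TMM factor, and levels are compared between genes per kb of annotated exon. Exons of 7 members overlap a gene on the opposite strand, and no source used here gives the strandedness of the libraries; these partner genes were at 0 to 2.00 CPM.

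The B ephrins Efnb3 and Efnb2, Sema7a and the plexins Plxna1 and Plxna4 had the 5 highest levels of the 48 genes. Efnb3, a transmembrane ephrin, had the highest level, at 84.2 CPM per kb of exon over the 6 libraries, and its range of 81.2 to 87.1 lay above that of every other member. Sema7a, a membrane-anchored semaphorin that binds integrins and Plxnc1, came next at 61.6 (45.4 to 68.0) CPM per kb. Efnb2, at 54.0 (49.99 to 60.1) CPM per kb, overlapped Sema7a, so the order of this pair is within the spread between libraries.

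Plxna1 and Plxna4, signalling receptors for class 3 and class 6 semaphorins, followed at 45.0 (41.6 to 48.7) and 42.1 (38.2 to 45.4) CPM per kb and overlapped each other. The median over the 10 plexins and neuropilins was 24.8 CPM per kb, against 6.61 over the 14 semaphorins. Plxnc1, the plexin that binds Sema7a, was the lowest of the 10 at 8.45 CPM per kb. Among semaphorins Sema6c came after Sema7a at 17.0 CPM per kb, and the lowest was Sema3d, a secreted semaphorin, at 0.724.

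Of the Eph receptors, Ephb6, whose kinase domain is inactive, had 22.2 (16.2 to 27.1) CPM per kb. Epha4, which binds ephrins of both classes, had 18.8 (15.6 to 24.9), overlapping Ephb6. Robo2 and Slit1, a receptor and a ligand of that pathway, were close to each other at 22.0 and 21.4 CPM per kb. The netrin ligands were low: Ntn1 had 2.696 and Ntn4, a netrin related to laminin, 1.11 CPM per kb, whereas the receptors Unc5a and Dcc had 13.2 and 7.22. Draxin, a secreted repellent that binds Dcc and netrin, led that group at 15.3 (12.02 to 19.9) CPM per kb, overlapping Unc5a (11.1 to 15.6).

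**Figure D1:**
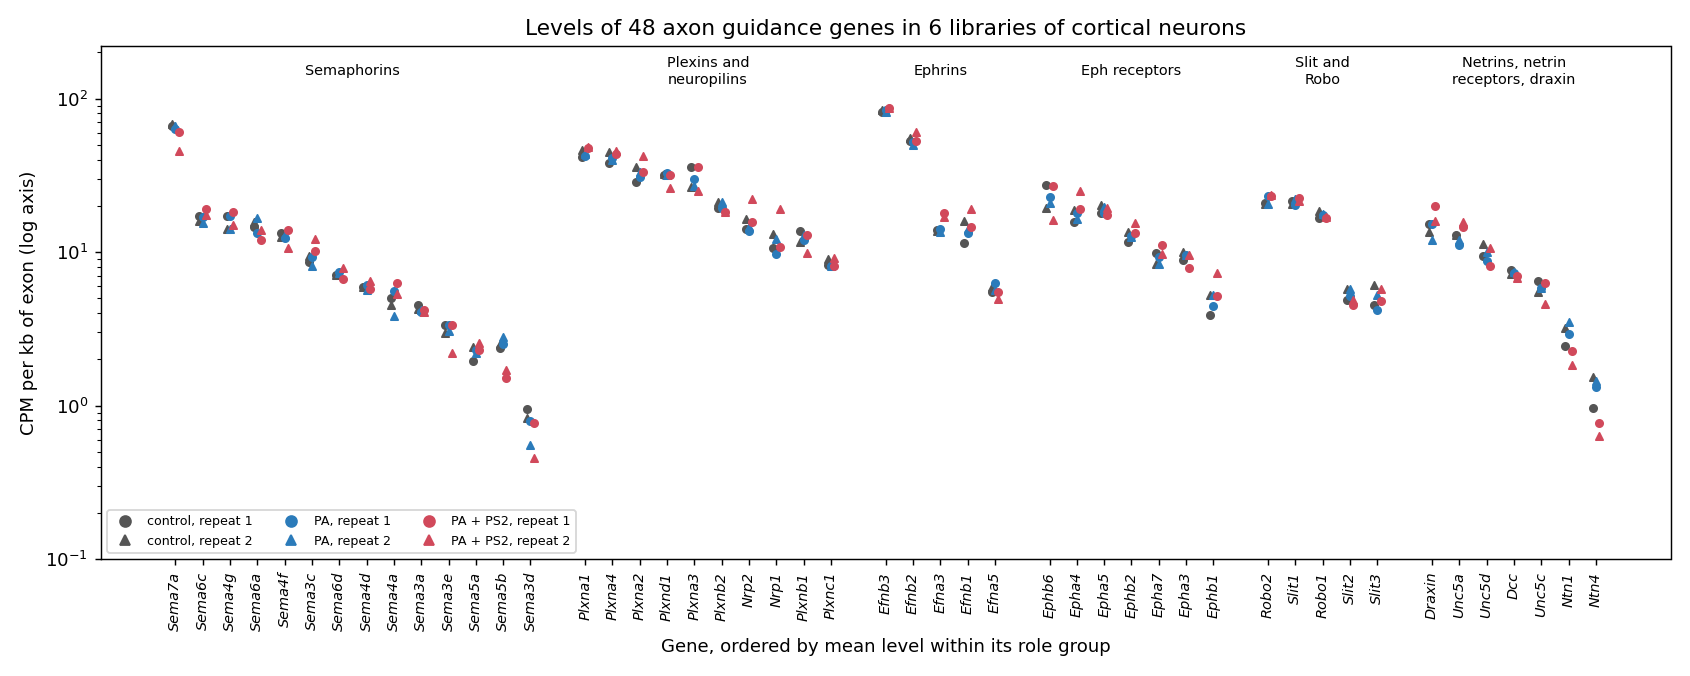
Level of each of the 48 genes in each of the 6 libraries, in CPM per kb of exon on a log axis, with genes on the horizontal axis grouped by role; circles are repeat 1 and triangles repeat 2. Levels span from Sema3d and Ntn4, at 0.724 and 1.11 on average, to Efnb3 at 81.2 to 87.1.

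With PA alone, the guidance genes lay close to the control. No member passed edgeR's quasi-likelihood test (0 of 48; 0 members also at an unadjusted p under 0.05), with or without the repeat number as a block, and DESeq2 called 0 as well, also with the block (0.00578% of all genes). Over all 17299 genes tested the called share was 0.0% in both edgeR fits and in DESeq2 without the block, and 0.595% had an unadjusted p under 0.05, rising to 1.45% with the block (0.269% and 0.937% among genes with a mean of at least 5 CPM). The median log2 fold change over the members was -0.01, beside 0.01 over all genes, and the median standard error of a member was 0.12. Of the 48, 1 lay above the control in both libraries without overlap and 5 lay below, where 12.1% and 9.69% of all genes did (10.6% and 8.31% of those of at least 5 CPM).

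Sema3d had the lowest log2 fold change of these, -0.41 ± 0.30 (SE; edgeR adjusted p = 1.00). It was at 8.16 and 7.11 CPM in control libraries, at 6.78 and 4.73 in PA, and at 6.66 and 3.90 in PA + PS2. Both PA libraries lay below both control libraries, and so did both PA + PS2 libraries. Unc5a, a netrin receptor, had -0.16 ± 0.09, Plxnc1 -0.10 ± 0.09 and Sema6d, a ligand of Plxna1, 0.05 ± 0.10. None of the 4 passed the test.

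With PS2 added to PA, 1 ligand fell and 1 ligand and 2 receptors rose in the comparison with PA when the repeat number entered the edgeR fit as a block. In that fit Draxin, Unc5a and Nrp2 rose and Sema5b fell, and 44 members did not pass. These 4 are 8.33% of the members, where 1.52% of all genes passed (0.202% higher and 1.32% lower). Without the block 0 members passed in edgeR, as for all genes (0.0%). Some did with no filter on low counts, a fit whose share over all genes is not given here. There were 10 members at an unadjusted p under 0.05 (20.8%, beside 7.7% of all genes and 7.97% of those of at least 5 CPM). DESeq2 without the block called Sema5b and Unc5a (1.16% of all genes), and with it Nrp1, Nrp2, Unc5a, Draxin and Sema5b (2.1%). The calls rest on few libraries. In a block fit of only the PA and PA + PS2 libraries, 0 members passed, and its share over all genes is not given here. With the block and all 3 groups, the calls were also lost without repeat 2 of PA + PS2, and their number varied with the library left out. Such a fit leaves 1 library in a group, and its count is not read as a result about the members.

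Against the control, 0 members passed in edgeR, both without the block (0.0% of all genes) and with it (0.699%). Some passed without the block when no filter on low counts was set, a fit whose share over all genes is not given here. At an unadjusted p under 0.05 there were 8 members without the block (6.81% of all genes, 7.52% of those with a mean of at least 5 CPM) and 22 with it (45.8%, beside 11.5% and 13.6%). For PA + PS2 against PA the count with the block was also 22 (45.8%, beside 11.9% and 13.1%). The members' share at that level was above the background in both comparisons, which share the PA + PS2 libraries. The sets are unlike in precision. Against the control with the block, the median standard error was 0.084 for members, 0.153 for all genes and 0.099 for those of at least 5 CPM. The members were also chosen with earlier results of these data known. The difference from the background was not tested. DESeq2 called Sema5b (0.751% of all genes), and with the block Sema5b and Ephb1 (1.61%). With the block, whether members passed depended on the library left out. Such a fit leaves 1 library in a group, and its count is not read as a result about the members.

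Counted without a test, 11 of 48 members lay above the control in both PA + PS2 libraries with no overlap and 12 below (22.9% and 25.0%), where 16.6% and 17.1% of all genes did (18.7% and 15.7% of those of at least 5 CPM). Against PA, 17 lay above and 9 below (35.4% and 18.8%, beside 16.7% and 18.4%, or 18.3% and 16.9%). The median log2 fold change over the members was 0.01 against the control and 0.07 against PA, with 24 and 27 of 48 values above 0. By role, 4 of 5 ephrins, 5 of 10 plexins and neuropilins and 3 of 7 Eph receptors lay above PA, and 1, 1 and 0 lay below. Of the other roles, 3 of 14 semaphorins lay above and 2 below, 0 of 5 Slit and Robo genes above and 2 below, and 2 of 7 in the netrin group above and 3 below.

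**Figure D2:**
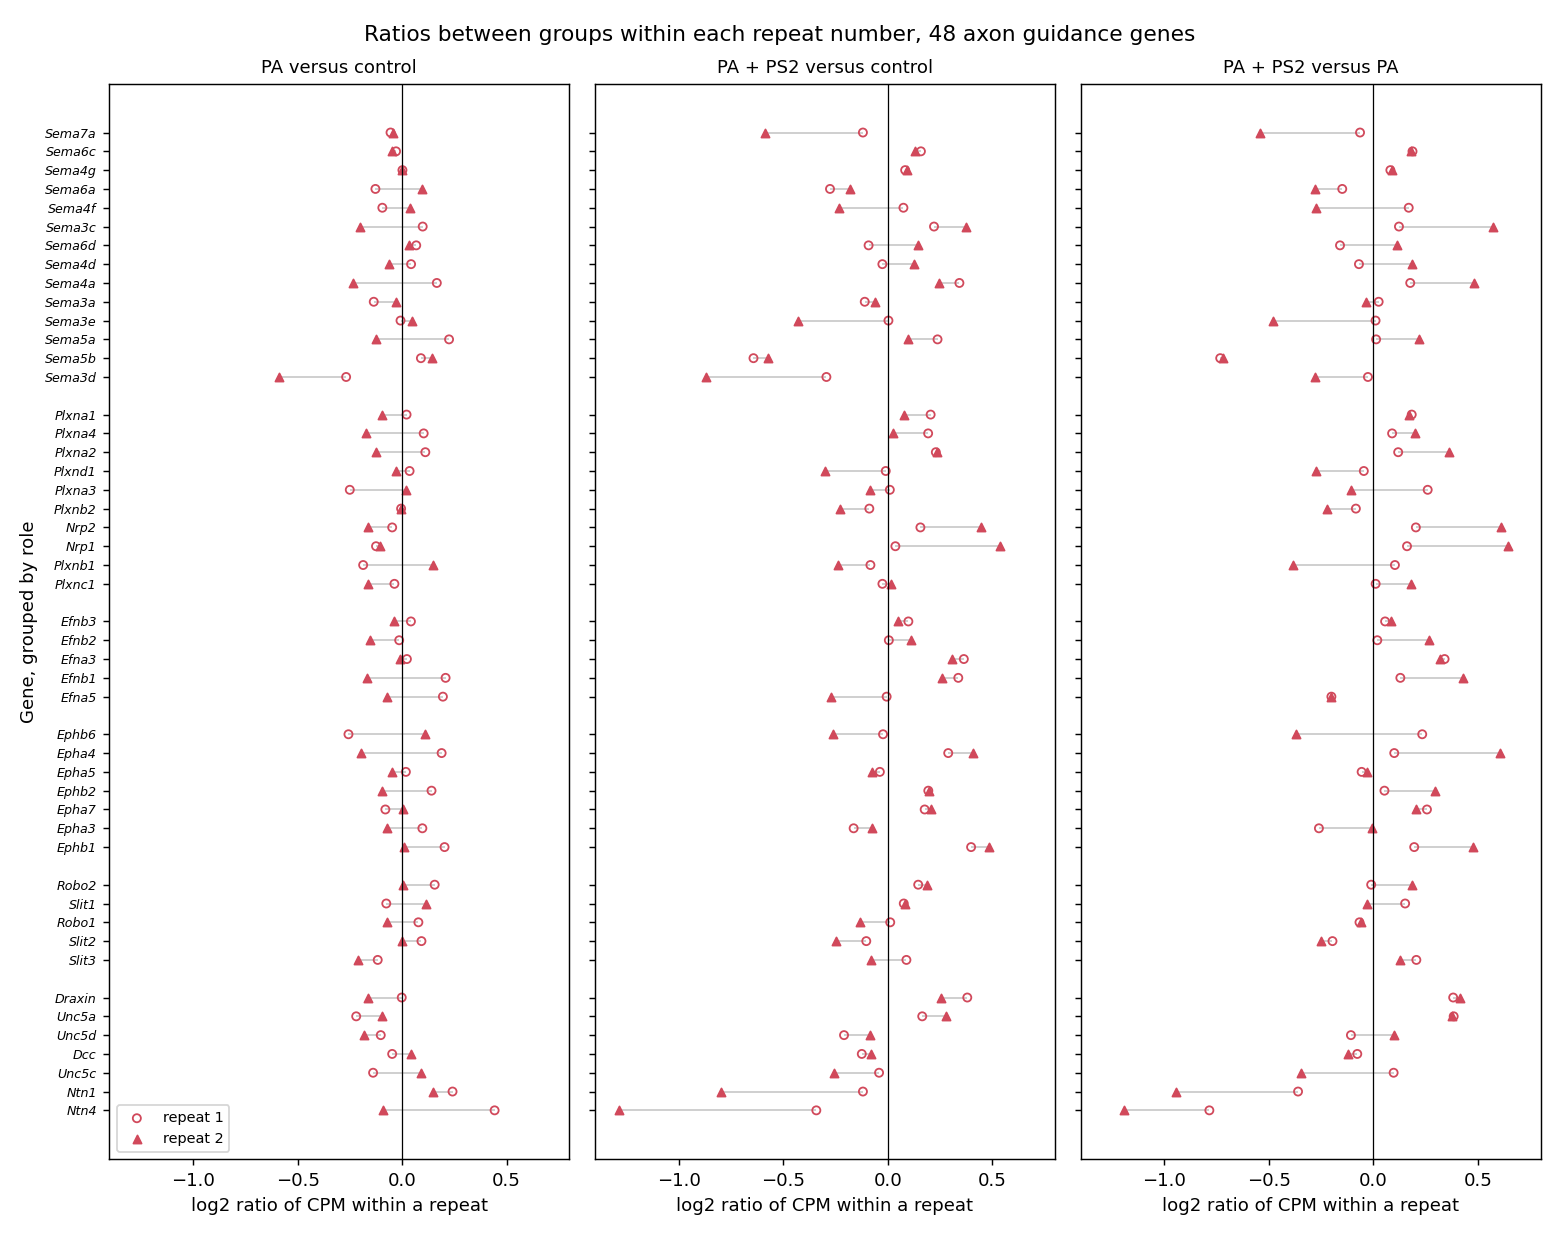
log2 ratio of CPM between groups within each repeat number, for the 48 genes grouped by role on the vertical axis; open circles are repeat 1, filled triangles repeat 2, and each panel is 1 comparison. In the panel of PA + PS2 versus PA the 2 marks of Sema5b lie together near -0.73 and those of Draxin and Unc5a between 0.38 and 0.42, whereas Nrp1, Nrp2 and Epha4 have wider pairs.

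Among the semaphorins, Sema5b fell and the other 13 did not pass in edgeR. Sema5b (mm10 chromosome 16, 35541145 to 35664732) encodes a transmembrane semaphorin with thrombospondin repeats that inhibits neurite outgrowth. It was at 16.7 and 17.9 CPM in control libraries, at 17.8 and 19.7 in PA, and at 10.7 and 12.01 in PA + PS2. Both PA + PS2 libraries lay below the other 4; in bulk samples fewer cells of a type and less RNA per cell cannot be told apart. With the block it fell against PA, by a log2 fold change of -0.72 ± 0.13 (SE; edgeR adjusted p = 0.0175; 0.317 without the block; 0.00600 in DESeq2), with ratios of -0.73 in repeat 1 and -0.72 in repeat 2. Against the control the value was -0.61 ± 0.13 (edgeR adjusted p = 0.0577 with the block and 0.417 without it, 0.0472 in DESeq2).

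Sema7a was at 218 and 224 CPM in control libraries, at 209.6 and 218 in PA, and at 201 and 149.6 in PA + PS2. PA + PS2 was below the other groups in both libraries, and most of the distance came from repeat 2 (log2 ratios to PA of -0.06 in repeat 1 and -0.54 in repeat 2; edgeR adjusted p = 0.327 with the block). Sema3d, against the control, had -0.57 ± 0.21 with the block (edgeR adjusted p = 0.281) and -0.53 ± 0.30 without it (edgeR adjusted p = 0.853), and did not pass. Sema3c, a secreted cue that attracts cortical axons, was at 61.9 and 66.9 CPM in control libraries, at 66.3 and 58.3 in PA, and at 72.2 and 86.7 in PA + PS2. Its PA + PS2 libraries were the 2 highest of the 6, with 0.35 ± 0.10 against PA (edgeR adjusted p = 0.139 with the block). Sema3a, the repellent for which the family is best known, stayed between 56.4 and 62.3 CPM in all 6 libraries, with 0.00 ± 0.08 against PA.

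Of the semaphorin receptors, Nrp2, a co-receptor preferred by Sema3c and Sema3f, was at 167 and 194 CPM in control libraries, at 162 and 173 in PA, and at 187 and 264 in PA + PS2. It rose with the block against PA (0.41 ± 0.09; edgeR adjusted p = 0.0486; 0.590 without it), with ratios of 0.20 in repeat 1 and 0.61 in repeat 2, and against the control it had 0.31 ± 0.09 (edgeR adjusted p = 0.172). The repeat 1 library of PA + PS2 lay between the 2 control libraries, and the repeat 2 library was the highest of the 6. Nrp1, the co-receptor for Sema3a, was at 103 and 129 CPM in control libraries, at 94.9 and 119.7 in PA, and at 106 and 187 in PA + PS2. Its repeat 2 libraries were the higher ones in each group, and the PA + PS2 library of repeat 2 stood highest; edgeR did not call it (adjusted p = 0.164 with the block against PA).

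No plexin passed. Plxna1 and Plxna2 had 0.18 ± 0.07 and 0.24 ± 0.07 against PA with the block (edgeR adjusted p = 0.273 and 0.165). Plxnb2, a receptor for class 4 semaphorins, had -0.15 ± 0.07, and Plxnd1, the receptor of Sema3e, -0.16 ± 0.08. Both PA + PS2 libraries lay above both PA libraries for Plxna1, Plxna2, Plxna4, Plxnc1 and Nrp2, and below for Plxnb2.

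**Figure D3:**
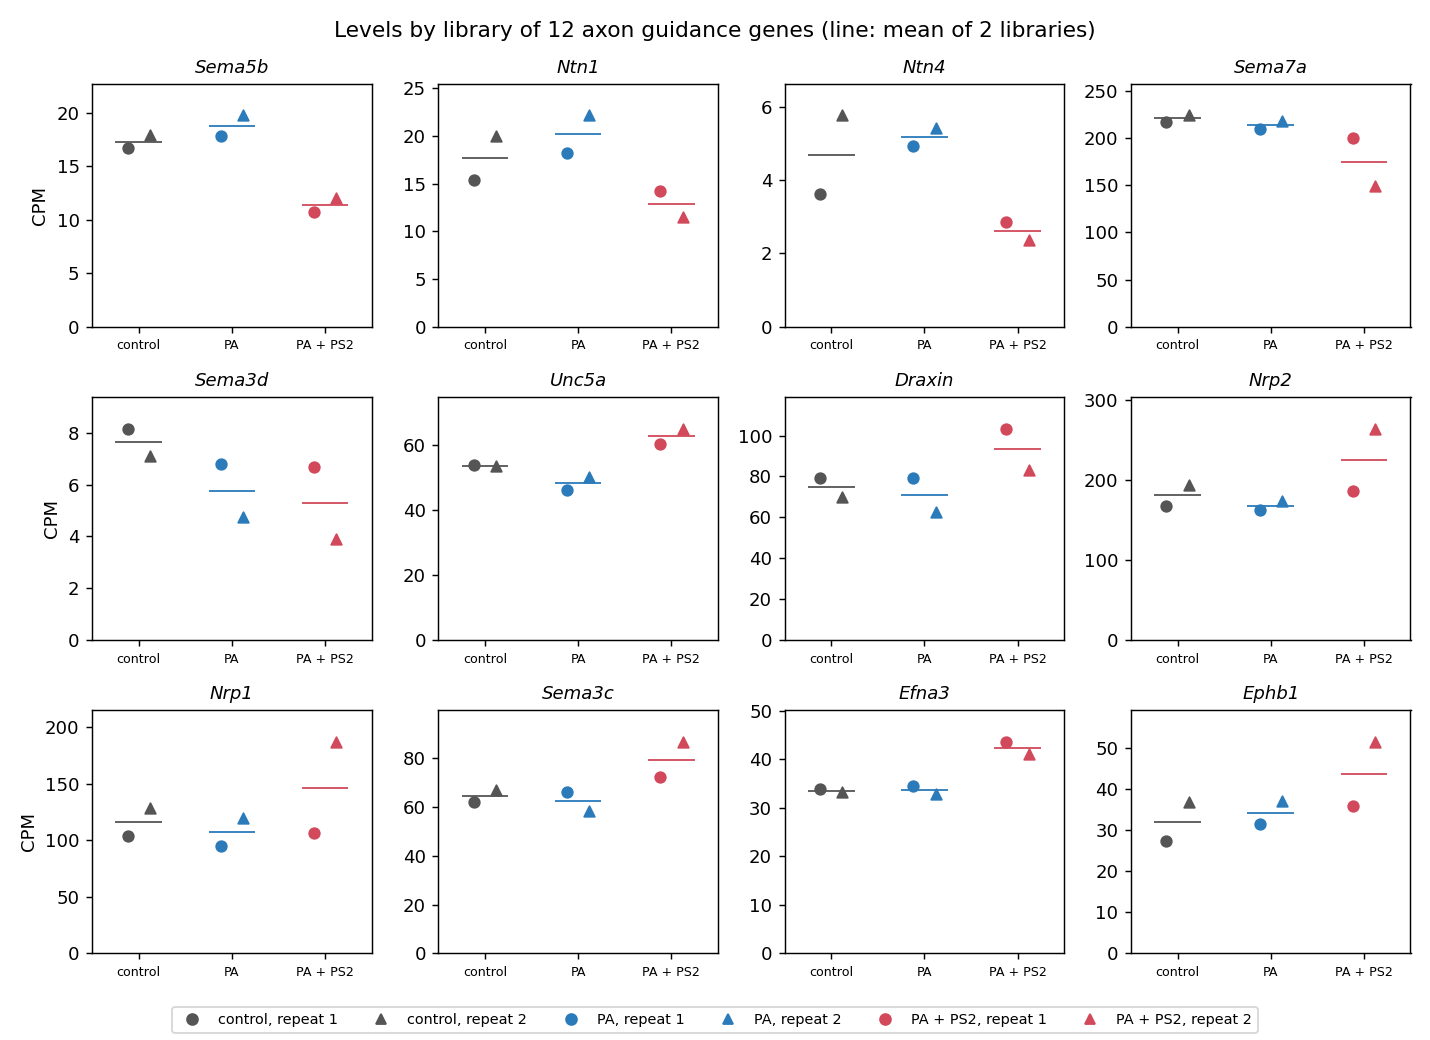
CPM of 12 members in each library, with 1 panel per gene, groups on the horizontal axis, circles for repeat 1, triangles for repeat 2 and a line at the mean of 2 libraries. Sema5b, Ntn1, Ntn4 and Sema7a have both PA + PS2 libraries below all others, and Unc5a, Draxin, Efna3 and Sema3c have both above all others.

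For ephrins and their receptors, no member passed in edgeR over all genes. Efna3, a lipid-anchored ephrin, was at 33.8 and 33.2 CPM in control libraries, at 34.4 and 32.9 in PA, and at 43.6 and 41.1 in PA + PS2. Both PA + PS2 libraries lay above the other 4, with log2 fold changes of 0.34 ± 0.09 against the control and 0.33 ± 0.09 against PA with the block (edgeR adjusted p = 0.132 and 0.112). Efna3 shares exon bases with Gm15998, a gene on the opposite strand that was at 0.119 to 0.863 CPM. Efnb1, an X-linked transmembrane ephrin, had 0.30 ± 0.10 and 0.28 ± 0.10, and Efnb2 and Efnb3, the 2 most abundant ephrins, had 0.06 ± 0.07 and 0.07 ± 0.06 against the control.

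Ephb1, a receptor for B ephrins, was at 27.3 and 36.8 CPM in control libraries, at 31.4 and 37.0 in PA, and at 36.0 and 51.5 in PA + PS2. Within each repeat PA + PS2 was the highest group, by log2 ratios to the control of 0.40 in repeat 1 and 0.48 in repeat 2, while the groups overlapped across repeats. Its log2 fold change against the control with the block was 0.44 ± 0.10 (edgeR adjusted p = 0.0704; DESeq2 with the block 0.0479). Epha4 was at 126 and 151 CPM in control libraries, at 144 and 132 in PA, and at 154 and 201 in PA + PS2, with both PA + PS2 libraries above the other 4 and 0.35 ± 0.11 against the control (edgeR adjusted p = 0.227 with the block). Epha5, the Eph receptor with the highest CPM, had -0.06 ± 0.06, and Epha7 and Ephb2 had 0.19 ± 0.07 and 0.20 ± 0.08.

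In the Slit and Robo pathway no member passed. Slit2, a secreted repellent, was at 124 and 147 CPM in control libraries, at 132 and 147 in PA, and at 116 and 124 in PA + PS2. Its PA + PS2 libraries were the lowest pair, with -0.22 ± 0.07 against PA (edgeR adjusted p = 0.173 with the block). Robo1 and Robo2, its receptors, had -0.06 ± 0.07 and 0.09 ± 0.07 against PA, and Slit1 had 0.06 ± 0.07. Slit3 was at 27.4 and 37.1 CPM in control libraries, at 25.3 and 32.0 in PA, and at 29.1 and 35.0 in PA + PS2, with repeat 2 above repeat 1 in every group.

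In the netrin group Draxin and Unc5a rose against PA with the block, whereas 5 others had no call. Draxin (chromosome 4, 148098437 to 148130698) was at 79.4 and 69.9 CPM in control libraries, at 79.4 and 62.5 in PA, and at 103 and 83.4 in PA + PS2. Both PA + PS2 libraries lay above the other 4, and repeat 1 was the higher library in each group. It rose with the block against PA, by 0.40 ± 0.08 (edgeR adjusted p = 0.0263; 0.564 without the block), with ratios of 0.38 in repeat 1 and 0.42 in repeat 2. Against the control it had 0.32 ± 0.08 (edgeR adjusted p = 0.0962 with the block).

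Unc5a (chromosome 13, 54949411 to 55006018) was at 53.8 and 53.6 CPM in control libraries, at 46.2 and 50.1 in PA, and at 60.3 and 65.1 in PA + PS2. Both PA + PS2 libraries were above the other 4, and both PA libraries were the lowest 2. It rose against PA with the block (0.38 ± 0.08; edgeR adjusted p = 0.0458; 0.368 without it; 0.0479 in DESeq2). With the block, Unc5a and Nrp2 did not pass when scaled by library totals alone or when genes needed at least 50 counts in 2 libraries. Against the control it had 0.22 ± 0.08 (edgeR adjusted p = 0.304 with the block). Unc5a overlaps exons of Hk3 on the opposite strand, and Hk3 was at 0.0323 to 0.812 CPM.

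The windows before the RefSeq start sites are shown for the 3 genes that rose against PA in the edgeR fit with the block. Without the block 0 members passed in edgeR. Of the 48 members, 40 had an entry in the RefSeq promoter table (GRCm38.p6). Bases that GENCODE places in an exon were removed, and no window is shown for Sema5b. Letters run 5′ to 3′ on the gene's strand, and capitals mark matches on either strand to the GC box (GGGCGG) or the E-box CAGCTG.
Draxin (chr4:148130699-148130914, minus strand): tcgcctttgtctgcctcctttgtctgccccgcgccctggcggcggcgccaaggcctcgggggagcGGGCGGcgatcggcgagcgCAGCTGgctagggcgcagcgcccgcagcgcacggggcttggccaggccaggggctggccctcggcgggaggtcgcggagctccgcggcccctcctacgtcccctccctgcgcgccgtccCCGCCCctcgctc
Unc5a (chr13:54949161-54949410, plus strand): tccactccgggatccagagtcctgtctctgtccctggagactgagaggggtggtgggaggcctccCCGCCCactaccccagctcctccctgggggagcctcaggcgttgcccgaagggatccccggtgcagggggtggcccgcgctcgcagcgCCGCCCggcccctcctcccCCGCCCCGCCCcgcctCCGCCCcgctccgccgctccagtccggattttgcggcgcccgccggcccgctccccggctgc
Nrp2 (chr1:62703067-62703284, plus strand): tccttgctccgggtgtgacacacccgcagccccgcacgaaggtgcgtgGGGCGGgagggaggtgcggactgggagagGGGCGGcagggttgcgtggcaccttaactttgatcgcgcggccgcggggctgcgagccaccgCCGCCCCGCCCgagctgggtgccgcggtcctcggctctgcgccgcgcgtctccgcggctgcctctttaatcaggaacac
The GC box had 2, 5 and 4 matches in these stretches, overlapping ones counted separately. Their GC content was 78.7%, 76.8% and 72.5%, with no value over all windows to set beside it. Of all 32851 windows of 250 bases in the table, 32.7% held a GC box and 4271 held the E-box CAGCTG, which among these windows occurs in Draxin. In the full 250 bases of the 4 genes, Sema5b included, 0 matches were found to the TATA box (TATAAA; 12.4% of all windows), the CCAAT box (CCAAT; 33.8%), the E-box CAGATG (14.4%), the AP-1 motif (TGANTCA; 6.75%) or the TEAD motif (GGAATG; 12.6%), and Sema5b had no GC box.

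The netrin ligands had their lowest levels with PS2, without passing. Ntn1 was at 15.4 and 20 CPM in control libraries, at 18.2 and 22.1 in PA, and at 14.2 and 11.5 in PA + PS2. Both PA + PS2 libraries lay below the other 4, with -0.64 ± 0.16 against PA (edgeR adjusted p = 0.0863 with the block) and -0.45 ± 0.16 against the control (0.285). Ntn4 was at 3.63 and 5.77 CPM in control libraries, at 4.94 and 5.43 in PA, and at 2.87 and 2.37 in PA + PS2, again with the PA + PS2 libraries lowest, and -0.97 ± 0.27 against PA (edgeR adjusted p = 0.105 with the block). Dcc, the attractive receptor, was at 100.1 and 94.6 CPM in control libraries, at 96.8 and 97.5 in PA, and at 91.8 and 89.7 in PA + PS2 and had -0.10 ± 0.07 against PA. Unc5c and Unc5d, repulsive receptors, had -0.12 ± 0.10 and 0.00 ± 0.08.

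Members that were chosen for description after their values were seen, beyond the fixed naming rule, are Sema3a, Sema3c, Nrp1, Plxna2, Plxnb2, Plxnd1, Efnb1, Ephb1, Ephb2, Epha5, Epha7, Slit2, Slit3, Robo1, Ntn4, Dcc, Unc5c and Unc5d. The remaining members, among them Sema4a, Sema4d, Sema4f, Sema4g, Sema5a, Sema6a, Sema3e, Plxna3, Plxnb1, Efna5 and Epha3, passed in edgeR in no comparison with or without the block. Against PA with the block, Sema4a had 0.32 ± 0.12, Sema6a -0.21 ± 0.07, Sema5a 0.11 ± 0.10 and Efna5, a lipid-anchored ephrin, -0.20 ± 0.12. Levels of these 11 ran from 2.29 CPM per kb (Sema5a) to 29.9 (Plxna3). The values of Sema4a, Sema5a, Sema6a and Efna5 here, and of Plxna3 by library below, are likewise beyond the naming rule.

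Other genes of these pathways held 3 calls. Of 26 further family members with a match in the files, 23 were tested, and with the block 1 rose and 0 fell against PA (4.35%, beside 1.52% of all genes), while 0 passed against the control. The 1 was Sema4c, a class 4 semaphorin, at 74.3 and 81.3 CPM in control libraries, at 76.2 and 69.0 in PA, and at 94.3 and 95.7 in PA + PS2 (edgeR log2 fold change 0.39 ± 0.08, adjusted p = 0.0396). Of 56 intracellular and membrane partners, 1 rose and 1 fell against PA with the block (3.57%). Cntn2, an axonal adhesion protein, rose (139 and 179.7 CPM in control libraries, at 148 and 151 in PA, and at 188 and 259 in PA + PS2; edgeR adjusted p = 0.0180), and Dock1, a Rac activator downstream of netrin signalling, fell (4.73 and 9.64 CPM in control libraries, at 6.002 and 12.4 in PA, and at 2.58 and 2.17 in PA + PS2; edgeR adjusted p = 0.0151). Without the block 0 of either list passed in edgeR in any comparison. The median log2 fold change over the 56 partners against PA with the block was 0.02.

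The level also went with the repeat number for some members, as it did for other genes. Repeat 2 was above repeat 1 in all 3 groups for 15 of 48 members and below for 11, where 19.9% and 19.9% of all genes were (20.8% and 21.1% of those of at least 5 CPM). Among the 15 were both neuropilins, Plxna1, Plxna2 and Plxnc1, as well as Slit2, Slit3 and Robo1. Among the 11 were Plxna3, Ephb6, Draxin and 5 semaphorins. Ephb6 was at 102 and 73.2 CPM in control libraries, at 85.7 and 78.9 in PA, and at 101 and 61.1 in PA + PS2, so its repeats were farther apart than its groups. Plxna3 showed the same, at 280.2 and 208 CPM in control libraries, at 236 and 211 in PA, and at 282 and 196 in PA + PS2.

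Markers of several other cell types were lower in PA + PS2. The 6 cell cycle genes summed to 61.7 and 119 CPM in control libraries, at 70.3 and 164 in PA, and at 31.4 and 34.3 in PA + PS2, and 5 of 6 lay below the control without overlap and 6 of 6 below PA. With the block, 3 of the 6 fell against the control and 4 against PA in edgeR. Of all genes, 0.699% passed against the control, and 1.32% fell and 0.202% rose against PA. In that fit 1 and 2 progenitor genes and 1 and 1 oligodendrocyte precursor genes fell against control and PA. Against PA, 2 mural genes and 1 inhibitory neuron gene fell. Of the oligodendrocyte genes, 2 rose against the control and 1 against PA. The 6 neural progenitor genes summed to 274 and 447 CPM in control libraries, at 321 and 557 in PA, and at 211 and 237 in PA + PS2, with 3 of 6 below each of the other groups. The 5 oligodendrocyte precursor genes summed to 33.4 and 80.5 CPM in control libraries, at 23.7 and 122 in PA, and at 7.90 and 6.30 in PA + PS2, with 5 and 4 of 5 below control and PA. The 8 astrocyte genes summed to 54.1 and 110 CPM in control libraries, at 65.9 and 209 in PA, and at 37.4 and 55.2 in PA + PS2; 3 of 8 lay below the control and 4 below PA, 1 lay above each, and 2 fell against PA with the block. Sema5b, Ntn1 and Ntn4 were lowest in the same 2 libraries as the cell cycle, progenitor and precursor sums. So were Sema7a, Slit2, Plxnb2, Dcc and Efna5, as well as the mural and endothelial sums given below. Of all genes, 17.1% lay below the control and 18.4% below PA without overlap. The share of all genes below both groups at once is not given here. The part of any of these cells in the lower netrin and Sema5b values was not tested.

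The 5 mural genes summed to 64.9 and 103 CPM in control libraries, at 95.1 and 59.1 in PA, and at 39.0 and 26.7 in PA + PS2, with 3 of 5 below each of the other groups, and the 5 endothelial genes to 7.32 and 5.36 CPM in control libraries, at 7.87 and 5.27 in PA, and at 4.62 and 3.77 in PA + PS2. The 6 oligodendrocyte genes went the other way, at 37.9 and 34.3 CPM in control libraries, at 48.1 and 37.4 in PA, and at 65.3 and 95.0 in PA + PS2 in sum, with 5 of 6 above each other group. The 7 excitatory cortical neuron genes summed to 1296 and 1403 CPM in control libraries, at 1406 and 1384 in PA, and at 1490 and 1655 in PA + PS2, and 2 and 3 of 7 lay above control and PA, Neurod6 among them. Of all genes, 16.6% lay above the control and 17.1% below it without overlap. Against PA, 16.7% lay above and 18.4% below. Neurod6, a transcription factor of projection neurons, was at 313 and 339.6 CPM in control libraries, at 345 and 335 in PA, and at 389 and 407 in PA + PS2. The rest of the 7 are not given by library. The 6 inhibitory neuron genes summed to 716 and 649 CPM in control libraries, at 763 and 614 in PA, and at 621 and 593 in PA + PS2, with 3 of 6 below each other group and 1 of 6 above the control. No marker of the 12 lists was at 0 in every library, and the part of these cells in the Draxin, Unc5a and Nrp2 values was not tested.

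**Figure D4:**
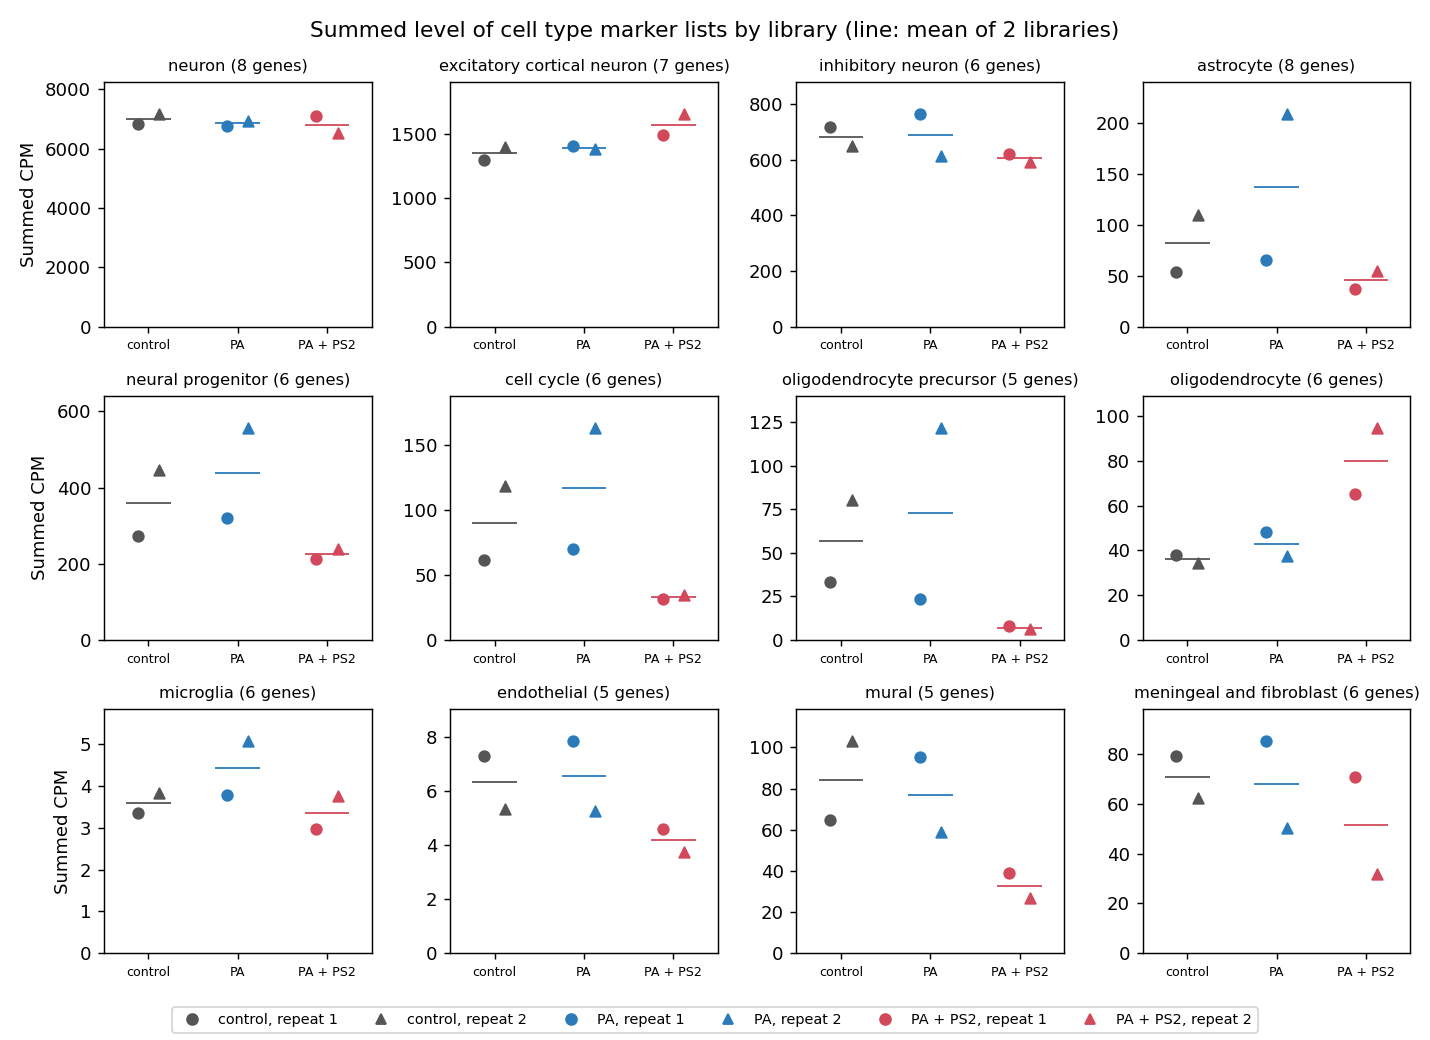
Summed CPM of each of 12 lists of cell type markers in each library, with 1 panel per list, groups on the horizontal axis, circles for repeat 1, triangles for repeat 2 and a line at the mean of 2 libraries. The cell cycle and oligodendrocyte precursor sums are lowest in both PA + PS2 libraries, the oligodendrocyte sum is highest there, and the neuron sum overlaps between groups.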

How the data were processed

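The deposited files hold raw counts per Ensembl gene, 1 file per library, as the authors made them. Tools listed in the submitters' processing notes, with no roles or settings, are STAR 2.7.5, cutadapt 4.2, DESeq2 1.14.1 and HTSeq 2.0.2, with mm10. Per the labels, RNA came from an RNeasy micro kit and libraries from a TruSeq Total RNA kit. Gene positions and exon lengths were taken from GENCODE M21 on GRCm38 (mm10).

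Counts of all 6 libraries (30714311 to 33923681 each) were fitted with edgeR 4.0.16 (R 4.3.3; robust quasi-likelihood, TMM, filterByExpr), 17299 genes tested, 3 residual degrees of freedom, Benjamini-Hochberg adjusted p under 0.05. A value is a log2 fold change ± its standard error; no fold change was shrunk beyond edgeR's prior count. Low counts limit Sema3d and Ntn4 most.

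Whether repeat numbers pair the libraries was checked from the data, not the labels: the repeat 2 minus repeat 1 differences correlated across genes between every pair of groups (0.346, 0.361 and 0.213), so the fit with the repeat number as a block (2 residual degrees of freedom) is given beside the fit without it. DESeq2 1.42.0 was an alternative. The code was tested on simulated data.

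The members and lists were chosen with earlier results of these data known. Members were named where they passed in edgeR with or without the block or in DESeq2 without it, had the 2 highest levels per kb in their role, or had the 3 highest or lowest log2 fold changes among members of at least 5 CPM whose groups do not overlap; others named are listed in the text.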

Additional observations from a re-analysis of the deposited data

How the results depend on the processing

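For PA against the control, 0 members passed under each alternative run. For PA + PS2 against the control (0 members), 5 passed with no filter on low counts, 1 in DESeq2, 2 in DESeq2 with the replicate block and 8 with the block in a fit of only the 2 groups compared; leaving out 1 library gave 0 to 0 without the block and 0 to 11 with it (10 without repeat 2 of PA and 10 without repeat 1 of PA + PS2). For PA + PS2 against PA (0 members), 7 passed with no filter, 2 in DESeq2, 4 with the replicate block, 5 in DESeq2 with the block and 2 with the block and at least 50 counts in 2 libraries; leaving out 1 library gave 0 to 0 without the block and 0 to 15 with it. Block fits with RLE size factors or library totals alone, both chosen after seeing the data, passed some members here, fewer with library totals. They passed 0 in both other comparisons, and the block fit of only PA and PA + PS2 passed 0 here. For the fits without a percentage beside them, the share of all genes that passed is not given here. Of 400 log2 fold changes of the named members under these alternatives, 340 kept direction and side of the threshold. Since 0 members passed in the edgeR fit without the block, these 340 are values that again did not pass. They do not bear on how stable the calls with the block are. A further 58 passed in addition, some in fits with 1 library left out. The remaining 2 reversed: Sema6d for PA against the control, 0.05, became -0.0055 and -0.029 with the block without repeat 2 of the control and without repeat 1 of PA. The cause was not tested. Where a group was left with 1 library, it was assumed to vary like the others.

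With 2 libraries a group and 2 or 3 residual degrees of freedom, the precision rests on few values, and the dispersion is borrowed across genes. Repeats are not stated to be separate cultures, the control carries the same treatment label, and no source used here gives the strandedness.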
